A study of Mus musculus with 16 samples.

Results

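Imprinted genes are expressed mainly from the copy inherited from one parent, and 41 mouse genes of this kind, chosen by name, were followed through the differentiation of embryonic stem cells into blood. Of these, 40 had a probe on the arrays and were among the 37149 genes tested. Rian, a maternally expressed long non-coding RNA, had no matching probe. The genes belonged to 19 clusters or single loci, of which 8 held more than 1 listed gene. By the allele usually active, 21 of the genes were grouped as paternally expressed and 17 (16 of them measured) as maternally expressed. Grb10, Ddc and Gnas were grouped as genes whose active allele differs by tissue. The grouping does not say that each of the other genes is imprinted in every tissue. The arrays measured the total RNA of a gene and could not tell the parental copies apart.

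Imprinting is set in the germ line as DNA methylation of a control region, which in the embryo keeps one copy of the neighbouring genes silent. Many imprinted genes act on growth before birth: as a rule, paternally expressed genes such as Igf2 promote it and maternally expressed genes such as H19, Igf2r, Cdkn1c and Phlda2 restrain it. Several, among them Igf2, H19, Dlk1 and Mest, are strongly expressed in embryonic mesoderm and mesenchyme and are turned down in most tissues after birth.

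The samples were 16 one-colour Agilent arrays, 2 for each of 8 groups. Sp1+/+ cells (the E14 line, with a strain label of C57BL/6) and Sp1-/- cells were differentiated in culture and sorted as Flk1+ cells, a mesodermal population with blood and vessel potential, then as hemogenic endothelium I (HE1: KIT+ Tie2+ CD41-), hemogenic endothelium II (HE2: KIT+ Tie2+ CD41+) and progenitors (KIT+ CD41+ Tie2-). In the Sp1-/- cells (titled SP1KO, same strain label) the transcription factor Sp1 is cut short and lacks its zinc fingers for DNA, and the labels name no second mutant line. The comparisons asked how the genes changed along this course and how the mutant differed from the wild type at each step.

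Values are log2 intensities as deposited, normalised over all arrays. A gene was called at a limma p of at most 0.01 before adjustment together with a difference of 2-fold or more, the threshold of the study, and adjusted p-values (Benjamini-Hochberg, over all genes tested) stand beside the calls. All 40 genes were well above background on both arrays of at least 1 group. Sp1 itself read 12.14 to 12.56 on the Sp1+/+ arrays and 9.03 to 10.29 on the Sp1-/- arrays. The remaining signal was above background, and the probe measures RNA, not the truncation. Each genotype had a slide of its own, and the labels name no second line of either genotype. Genotype, cell line and slide thus cannot be told apart in any comparison between genotypes, whereas comparisons of populations lie within a slide. The labelled populations were compared with markers. The mean of 5 mesoderm markers was 12.80 to 13.61 in Flk1+ cells and at most 9.12 elsewhere. That of 5 endothelial markers was highest in HE1, at 12.18 to 12.60. That of 7 blood progenitor markers was 10.87 to 11.57 in HE2 and progenitors and at most 9.70 before. These lists held the genes of the sorted antigens (Kdr for Flk1, Tek for Tie2, Itga2b for CD41, and Kit), so the sort fixed part of this outcome. The submitters call the 2 arrays of a group independent biological replicates and a legend of the study calls them technical, so it is open which kind of spread the p-values cover.

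The Sp1-/- cells differed from the Sp1+/+ cells in 16 of the 40 imprinted genes in at least 1 population, beside 6.74% of all genes tested, and 24 were called in none. In progenitors 10 were called, and all 10 were lower in Sp1-/- cells: H19, Igf2, Meg3, Dlk1, Sgce, Plagl1, Mest, Ddc, Nnat and Slc38a4. Over all genes tested, 4.11% were called in that comparison in either direction and 2.59% were called lower. Beside the 0 imprinted genes called higher in limma there were 3 with an unadjusted p of 0.05 or less in that direction. The methods' t-test called 0 higher, but only 3 in all, so its 0 adds little. Other settings called 1 higher: Slc22a18, an organic cation transporter, at 1.00 with the background offset of 16 and at 1.35 with the processed signal (13 lower in each), and Asb4 at 1.58 without Sp1+/+ progenitor replicate 1 (8 lower). In HE1 the calls went mostly the other way, with 7 genes higher and 2 lower (2.11% of all genes called, 0.972% higher and 1.14% lower). In Flk1+ cells 2 were higher and 1 was lower (1.65% of all genes), and in HE2 2 were higher and 1 was lower (1.94% of all genes). The methods' t-test called 0, 1 and 0 in Flk1+ cells, HE1 and HE2 and 3 in progenitors. The count in HE1 was 4 without Sp1+/+ HE1 replicate 2, and the count in Flk1+ cells was 1 without Sp1-/- Flk1+ replicate 1.

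The 40 genes had a median log2 difference of 0.19 in Flk1+ cells and 0.04 in HE1, which was -0.10 for HE2 and -0.58 for progenitors, beside 0.01 to 0.02 for all genes tested. In progenitors 28 of the 40 had a difference below 0. H19 was the only one of the 40 called in all 4 populations, 12 were called in exactly 1, and Meg3 and Plagl1 were called in opposite directions in different populations.

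**Figure D1:**
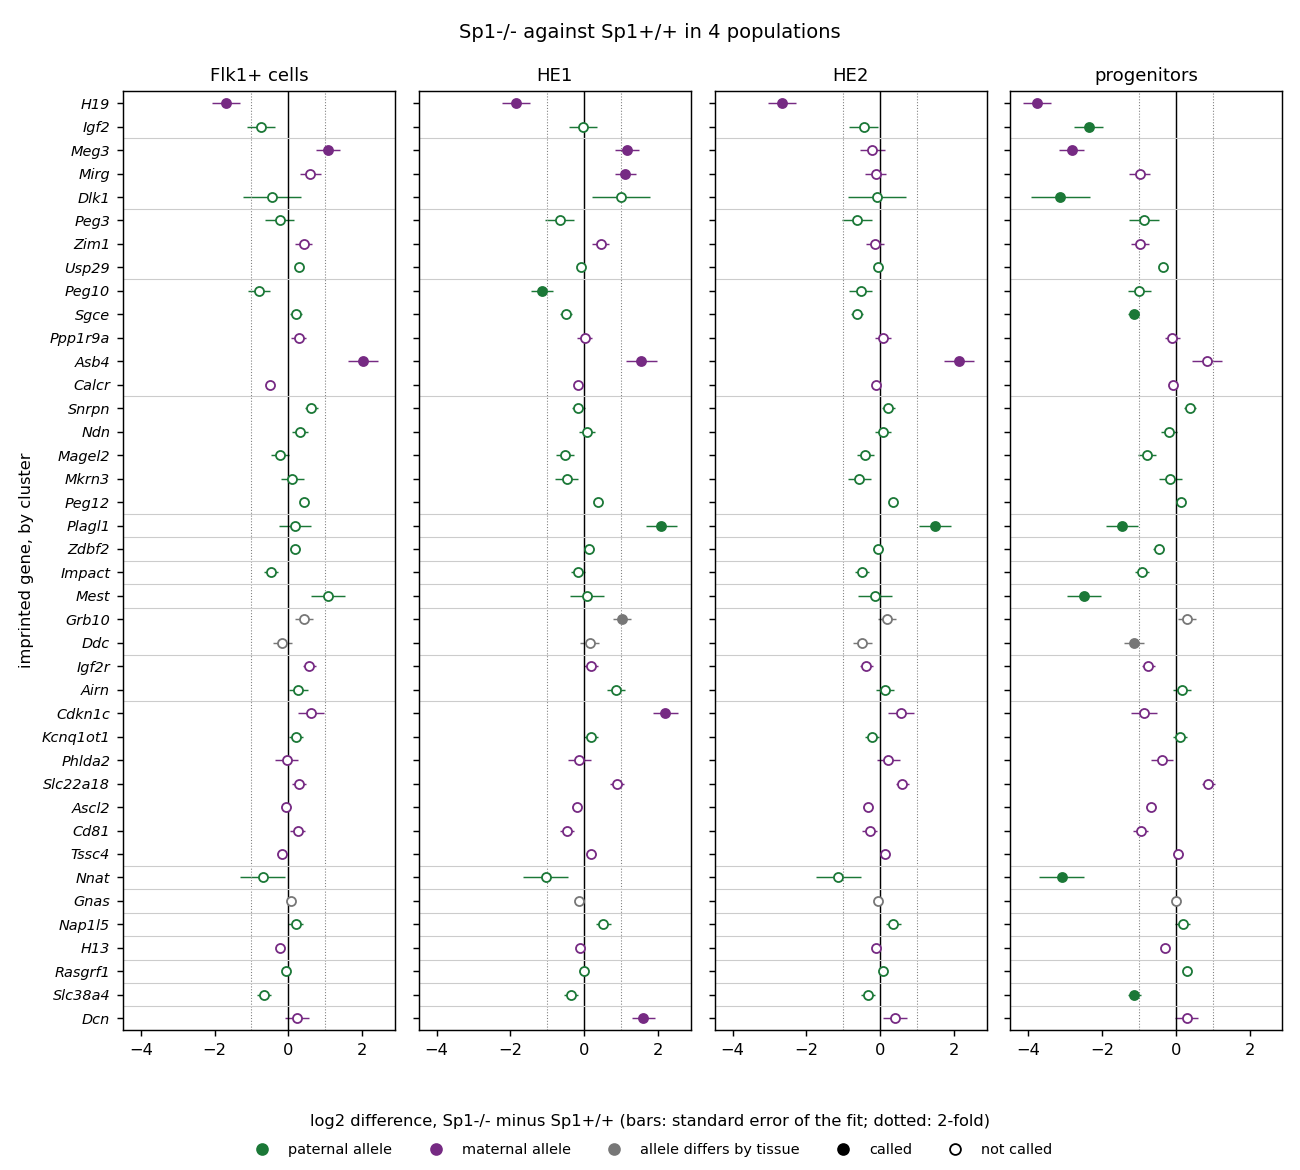
Log2 difference of Sp1-/- minus Sp1+/+ cells (horizontal axis) for each of 40 imprinted genes (rows, by cluster) in the 4 populations. Points are means of 2 arrays against 2, bars are standard errors of the limma fit, filled points were called and colours give the allele. In progenitors the 10 filled points all lie to the left of 0, from -1.13 for Slc38a4 to -3.77 for H19.

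In bulk samples of sorted cells, fewer cells of a type and less RNA per cell cannot be told apart, and markers of other cell types moved with the difference in progenitors. The mean log2 level of 9 mesenchyme and smooth muscle markers, which included collagens, Acta2 and Tagln, was 10.99 to 11.51 on the Sp1+/+ progenitor arrays and 8.57 on both Sp1-/- arrays, and 7 of the 9 were called lower. Lum was not well above background on the Sp1-/- progenitor arrays. The mean of 5 endothelial markers was 9.23 to 10.07 in Sp1+/+ progenitors and 8.30 to 8.62 in Sp1-/- progenitors, and the mean of 7 erythroid markers was 12.80 to 14.28 against 15.64 to 15.65. In Flk1+ cells the mesenchymal mean was 8.98 to 9.24 in Sp1+/+ and 8.91 to 9.08 in Sp1-/- cells. In HE1 it was 10.97 to 12 in Sp1+/+ and 11.54 to 12.47 in Sp1-/- cells, and in HE2 it was 10.07 to 11.29 against 9.93 to 10.53. In these 3 populations the mesenchymal ranges of the genotypes overlapped, and in progenitors they did not. Other lists differed earlier. In Flk1+ cells the mean of 5 pluripotency markers was 8.27 to 8.65 in Sp1+/+ and 8.95 to 9.27 in Sp1-/- cells, and that of 6 visceral endoderm markers was 6.31 to 6.32 against 7.05 to 7.10. In HE1 the endothelial mean was 12.40 to 12.60 against 12.18 to 12.20, and the erythroid mean of the Sp1+/+ arrays was split, at 10.82 and 7.85. In HE2 the erythroid mean was 10.38 to 11.65 against 12.39 to 12.46. The part of these cells in the imprinted genes' differences was not tested.

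**Figure D2:**
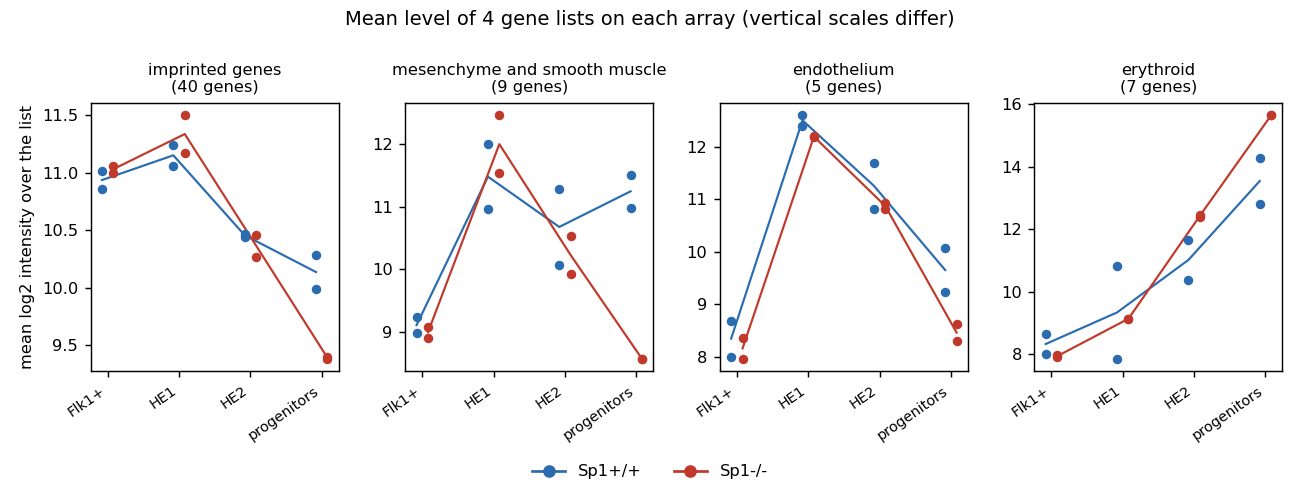
Mean log2 intensity (vertical axis, scales differ) of the 40 imprinted genes and of 3 marker lists on each of the 16 arrays, by population (horizontal axis). Points are arrays and lines join the means of 2, in blue for Sp1+/+ and red for Sp1-/-. The mesenchymal and imprinted means of the Sp1-/- progenitors are below both Sp1+/+ progenitor arrays, at 8.57 for the mesenchymal list and at 9.38 and 9.40 for the imprinted genes against 9.99 and 10.28.

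In the Igf2-H19 cluster on chromosome 7, Igf2 encodes the fetal growth factor IGF2, expressed from the paternal copy, and H19 is a non-coding RNA of the maternal copy that gives rise to a microRNA. H19 read 11.98 and 12.58 in Sp1+/+ Flk1+ cells against 10.26 and 10.93 in Sp1-/- cells. It read 15.59 and 15.78 in Sp1+/+ HE1 against 13.69 and 13.99 in Sp1-/- HE1. It read 13.59 and 14.66 in Sp1+/+ HE2 against 11.21 and 11.74, and 12.58 and 11.88 in Sp1+/+ progenitors against 8.27 and 8.66. Both Sp1-/- arrays were thus below both Sp1+/+ arrays in all 4 populations. The log2 differences were -1.69 ± 0.38 (SE), -1.85 ± 0.38, -2.65 ± 0.38 and -3.77 ± 0.38 from Flk1+ cells to progenitors, with limma adjusted p-values of 0.0219, 0.013, 0.002 and 9.2e-05. In Flk1+ cells the call was lost without Sp1+/+ replicate 2 (-1.38) and without Sp1-/- replicate 1 (-1.35). The effect on H19 changed by -2.08 ± 0.53 on the log2 scale between Flk1+ cells and progenitors, by a test of the difference between the 2 effects with a limma adjusted p of 0.0491.

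Igf2 was called in progenitors alone, with differences of -0.74 in Flk1+ cells and -0.45 in HE2. It read 15.01 and 15.14 in Sp1+/+ HE1 and 15.47 and 14.61 in Sp1-/- HE1, a difference of -0.04 ± 0.38. In progenitors it read 12.37 and 11.29 in Sp1+/+ cells and 9.47 and 9.45 in Sp1-/- cells, so that the groups did not overlap. That difference was -2.37 ± 0.38 on the log2 scale, or 5.17-fold lower (limma adjusted p = 0.00184). The Sp1-/- effect on Igf2 changed between HE1 and progenitors by -2.33 ± 0.54 (limma adjusted p = 0.0411), in a comparison added after the values were seen.

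Sp1 binds GC boxes, the letters GGGCGG on either strand (CCGCCC on the other). Igf2 has 4 annotated starts in the RefSeq table, and the window (250 bases before to 50 after the start) that held the most GC boxes among them is shown because it has 2, given in capitals, on the minus strand, that of the gene, at chr7:142657447-142657746 of build GRCm38.p6. Which of the starts these cells used was not resolved by the probe.
Igf2: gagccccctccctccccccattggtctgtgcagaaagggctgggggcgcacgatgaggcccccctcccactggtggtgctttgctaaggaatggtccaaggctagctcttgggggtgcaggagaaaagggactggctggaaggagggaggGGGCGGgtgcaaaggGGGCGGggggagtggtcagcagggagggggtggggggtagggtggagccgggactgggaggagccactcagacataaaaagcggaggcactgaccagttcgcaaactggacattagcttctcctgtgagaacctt
Another of its windows held 1 GC box and the remaining windows held none.

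In the Dlk1-Meg3 cluster on chromosome 12, the paternal copy gives Dlk1, a membrane protein related to the Notch ligands, and the maternal copy gives Meg3, a long non-coding RNA, and Mirg, the host RNA of a microRNA cluster. Meg3 was higher in the mutant at the start and lower at the end. In Flk1+ cells it read 12.11 and 12.94 in Sp1+/+ and 13.72 and 13.47 in Sp1-/- cells. In HE1 it read 12 and 11.49 against 13.20 and 12.62. In progenitors it read 10.21 and 9.70 against 6.89 and 7.37. The groups did not overlap in any of these 3 populations, and the order of the genotypes turned between HE1 and progenitors. The differences were 1.07 ± 0.33 in Flk1+ cells (limma adjusted p = 0.0838), 1.16 ± 0.33 in HE1 (0.0491) and -2.83 ± 0.33 in progenitors (0.000258), and -0.21 ± 0.33 in HE2 was not called. The difference between the genotypes changed from Flk1+ cells to progenitors by -3.89 ± 0.47 (limma adjusted p = 0.00122), the largest such change among the 40 genes. The early rise of Meg3 was the less secure part: its call in Flk1+ cells was lost without Sp1+/+ replicate 1 (0.65), without Sp1-/- replicate 1 (0.94) and without Sp1-/- replicate 2 (1.19), and its call in HE1 without Sp1+/+ replicate 2 (0.91) and without Sp1-/- replicate 1 (0.87).

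Mirg took a similar course, with 9.32 and 9.05 in Sp1+/+ HE1 against 10.67 and 9.92 in Sp1-/- HE1, where it was higher by 1.11 ± 0.28 (limma adjusted p = 0.0318). That call was lost without Sp1+/+ HE1 replicate 2 (0.97) and without Sp1-/- HE1 replicate 1 (0.73). In progenitors the difference of Mirg was -0.98 ± 0.28, just short of 2-fold. Mirg was called lower there with the background offset of 16 (-1.20), no background correction (-1.13) and the processed signal (-1.57). Dlk1 read 13.50 and 11.57 in Sp1+/+ HE1, 14.32 and 12.73 in Sp1-/- HE1, 13.25 and 12.06 in Sp1+/+ progenitors and 9.51 and 9.54 in Sp1-/- progenitors. Its standard error over all groups was larger than that of any other of the 40 genes, and only in progenitors was it called, at -3.13 ± 0.79 (limma adjusted p = 0.023). Without Sp1+/+ progenitor replicate 1 (-2.54), Sp1-/- replicate 1 (-3.12) or Sp1-/- replicate 2 (-3.15) the Dlk1 call was lost although the difference stayed large. A second, dimmer probe of Dlk1 gave -2.64 in progenitors, and the 2 dimmer probes of Meg3 gave -1.29 and -0.55.

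The Meg3 promoter is shown because its RNA had the largest change of effect between Flk1+ cells and progenitors among the 40 genes. Its first window, on the plus strand at chr12:109540746-109541045 (GRCm38.p6, RefSeq), held no GC box and 1 copy of TGCCGC, which lies on the opposite strand and so reads GCGGCA in capitals here, the letters that the imprint-protecting zinc finger protein Zfp57 reads when they are methylated.
Meg3: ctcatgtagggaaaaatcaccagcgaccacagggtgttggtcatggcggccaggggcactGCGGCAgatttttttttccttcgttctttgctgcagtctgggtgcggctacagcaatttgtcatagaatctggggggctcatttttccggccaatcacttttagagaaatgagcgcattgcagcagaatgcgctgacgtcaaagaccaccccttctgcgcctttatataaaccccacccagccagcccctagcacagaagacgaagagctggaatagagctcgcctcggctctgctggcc
The second window of Meg3 and the only window of Dlk1 held neither set of letters.

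**Figure D3:**
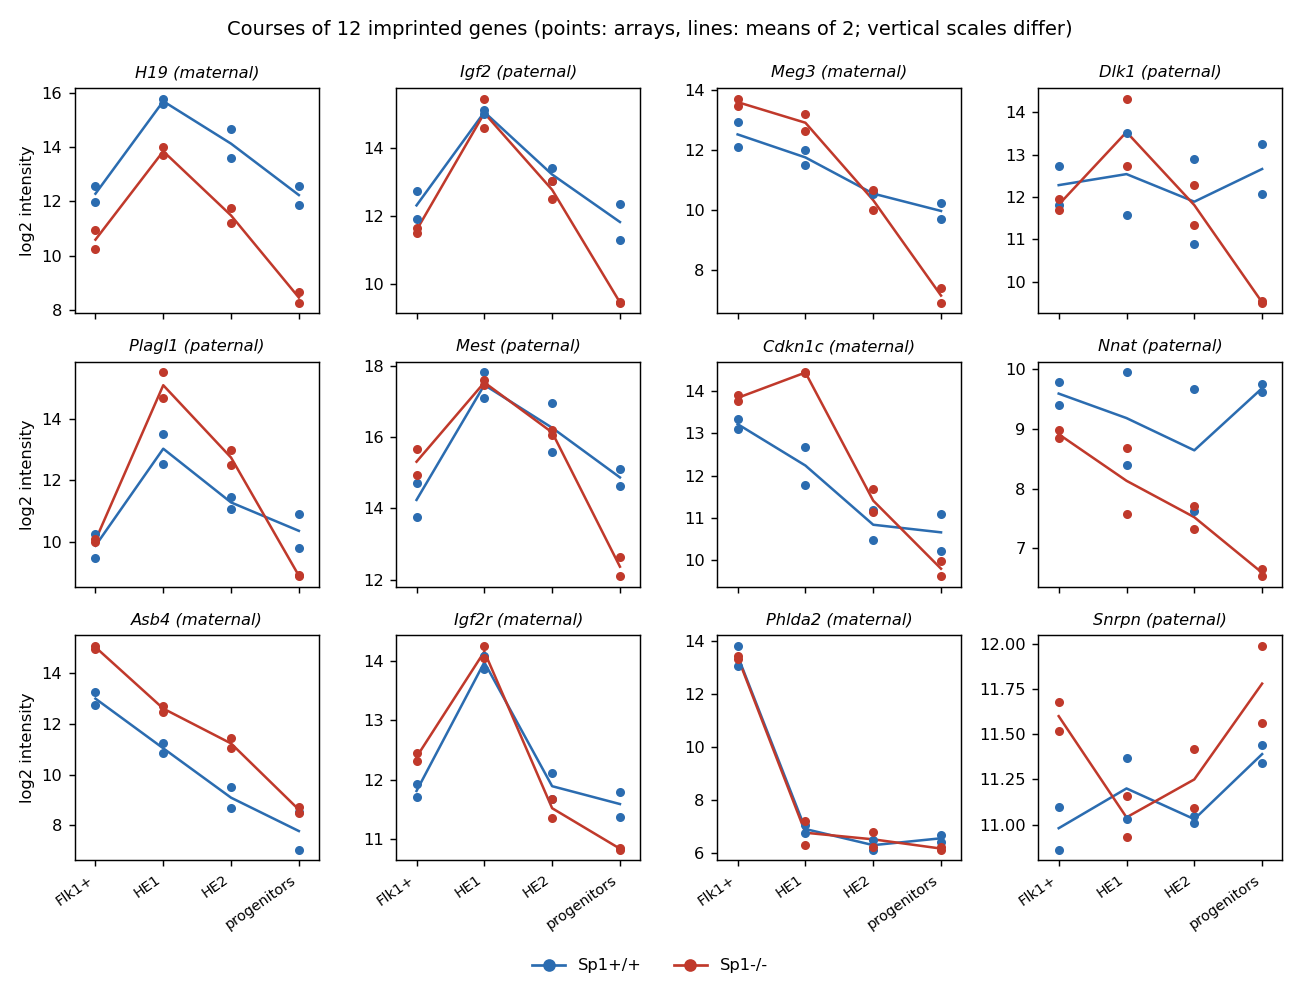
Log2 intensity (vertical axis, scales differ) of 12 imprinted genes in Flk1+ cells, HE1, HE2 and progenitors. Points are arrays, lines join the means of 2, blue is Sp1+/+ and red is Sp1-/-. H19 stays lower in Sp1-/- cells throughout, Meg3 and Plagl1 cross from higher to lower, and Phlda2 drops alike in both genotypes.

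Plagl1, a paternally expressed zinc finger transcription factor that restrains cell division, was called in opposite directions along the course. It read 9.46 and 10.25 in Sp1+/+ Flk1+ cells and 9.99 and 10.08 in Sp1-/- Flk1+ cells, which overlapped. In HE1 it read 13.53 and 12.54 against 15.55 and 14.70, and in HE2 11.08 and 11.47 against 12.99 and 12.52. In progenitors it read 10.90 and 9.80 against 8.86 and 8.89. Plagl1 was therefore higher in Sp1-/- HE1 by 2.09 ± 0.43 (4.26-fold, limma adjusted p = 0.0133) and HE2 by 1.48 ± 0.43 (0.0757), and lower in progenitors by -1.47 ± 0.43 (0.0445). Between HE1 and progenitors the effect changed by -3.56 ± 0.61 (limma adjusted p = 0.0102). The HE1 call held without any 1 array of that comparison. The HE2 call was lost without Sp1+/+ replicate 1 (1.28), Sp1+/+ replicate 2 (1.67) or Sp1-/- replicate 1 (1.25). The progenitor call was lost without Sp1+/+ replicate 1 (-0.93), Sp1-/- replicate 1 (-1.46) or Sp1-/- replicate 2 (-1.49). The next brightest probe of Plagl1 gave 2.22, 1.36 and -1.45 in HE1, HE2 and progenitors. A further, dimmer probe gave 1.14, 0.23 and -0.02, and the dimmest of its 4 probes gave 0.60, 0.18 and 0.23. The rise in HE2 and the drop in progenitors thus reached 2-fold only on the brighter probes.

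Mest, paternally expressed and marking mesoderm and mesenchyme, gave the brightest reading of the 40 genes and lay between 17.09 and 17.82 in HE1 in both genotypes. In Flk1+ cells it read 13.77 and 14.71 in Sp1+/+ and 14.93 and 15.68 in Sp1-/- cells, a difference of 1.07 ± 0.46 that was not called. In progenitors it read 15.10 and 14.64 against 12.10 and 12.63, so that Mest was 5.66-fold lower in Sp1-/- cells, -2.50 ± 0.46 (limma adjusted p = 0.00405). The effect on Mest changed by -3.57 ± 0.64 between Flk1+ cells and progenitors (limma adjusted p = 0.0105).

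The windows of Mest and Plagl1 are shown because both letters sought, GGGCGG and TGCCGC, occur in each, on either strand and without overlap. Capitals mark all of them. That of Mest lies on the plus strand at chr6:30737800-30738099 and that of Plagl1 on the plus strand at chr10:13090582-13090881 (GRCm38.p6, RefSeq).
Mest: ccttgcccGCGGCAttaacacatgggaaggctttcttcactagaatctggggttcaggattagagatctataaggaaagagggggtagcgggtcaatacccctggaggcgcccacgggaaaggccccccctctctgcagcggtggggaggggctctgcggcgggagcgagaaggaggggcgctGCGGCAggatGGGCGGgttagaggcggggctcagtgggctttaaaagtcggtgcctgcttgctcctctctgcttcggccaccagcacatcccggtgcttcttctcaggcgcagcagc
Plagl1: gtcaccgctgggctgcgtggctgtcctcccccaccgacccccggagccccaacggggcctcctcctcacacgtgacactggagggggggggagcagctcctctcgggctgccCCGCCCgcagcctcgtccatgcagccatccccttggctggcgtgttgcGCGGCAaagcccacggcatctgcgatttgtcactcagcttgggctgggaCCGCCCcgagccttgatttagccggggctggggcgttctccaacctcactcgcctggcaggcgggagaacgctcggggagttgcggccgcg
The Mest window held 1 GC box and 2 copies of TGCCGC, and the Plagl1 window held 2 GC boxes and 1 copy.

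In the Peg10-Sgce cluster on chromosome 6, the maternally expressed Asb4, a subunit of ubiquitin ligases known from embryonic vessels, was higher in the mutant. Asb4 read 13.23 and 12.72 in Sp1+/+ Flk1+ cells against 14.94 and 15.06 in Sp1-/- Flk1+ cells. It read 11.22 and 10.84 against 12.71 and 12.46 in HE1, and 8.67 and 9.50 against 11.42 and 11.03 in HE2. The groups did not overlap in these 3 populations. The differences were 2.03 ± 0.41, 1.55 ± 0.41 and 2.14 ± 0.41 (limma adjusted p = 0.0136, 0.0367 and 0.0109). A second, dimmer probe of Asb4 gave 1.47, 0.53 and 0.43 in these populations, under 2-fold in HE1 and HE2. The call in HE1 was lost without Sp1+/+ replicate 2 (1.36) and without Sp1-/- replicate 1 (1.43). In progenitors Asb4 read 8.52 and 7.04 against 8.74 and 8.50, and 0.84 ± 0.41 was not called. The paternally expressed neighbours went the other way. Peg10, derived from a retrotransposon and needed in the placenta, read 11.88 and 12.14 in Sp1+/+ HE1 against 11.24 and 10.48. It was lower there by -1.15 ± 0.30 (limma adjusted p = 0.036), a call lost without Sp1+/+ replicate 2 (-1.02) and without Sp1-/- replicate 2 (-0.77). In progenitors the difference of Peg10 was -0.99. It was called lower there with the background offset of 16 (-1.02) and with no background correction (-1.01). Sgce, which encodes the membrane protein epsilon-sarcoglycan, read 10.95 and 10.70 in Sp1+/+ progenitors against 9.51 and 9.84, lower by -1.15 ± 0.16 (limma adjusted p = 0.000687), and without Sp1-/- replicate 1 the difference was -0.99, under 2-fold. Ppp1r9a and the calcitonin receptor gene Calcr, both maternally expressed, were called in none of the 4 populations. Calcr was well above background on both arrays only in the 2 Flk1+ groups.

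In the Kcnq1ot1 cluster on chromosome 7, Cdkn1c encodes the cell cycle inhibitor p57 and is expressed from the maternal copy. In HE1 it read 12.69 and 11.79 in Sp1+/+ and 14.45 and 14.43 in Sp1-/- cells. The Sp1-/- arrays were both above the Sp1+/+ arrays, and Cdkn1c was 4.59-fold higher, 2.20 ± 0.35 (limma adjusted p = 0.00388), the largest rise of any member in the mutant. In the other populations its differences were 0.62, 0.56 and -0.86, none of them called, and the effect changed between HE1 and progenitors by -3.06 ± 0.49 (limma adjusted p = 0.00778). The silencing RNA Kcnq1ot1 of the paternal copy, which covers this cluster, lay between 9.60 and 10.57 on all 16 arrays and was called in none of the 4 populations. Phlda2, Slc22a18, Ascl2, Cd81 and Tssc4 were not called between genotypes either with the main settings. Slc22a18 was called higher in HE1 with the background offset of 16 (1.03) and the processed signal (1.56). With the processed signal Cd81 was called lower in progenitors (-1.08). Cd81, a tetraspanin, had a difference of 0.25 in Flk1+ cells and -0.96 in progenitors, and the change of -1.21 ± 0.28 was called (limma adjusted p = 0.0312).

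Grb10 encodes an adaptor that dampens insulin and IGF receptor signalling, and its neighbour Ddc on chromosome 11 makes the enzyme of dopamine and serotonin synthesis. Grb10 read 11.89 and 11.42 in Sp1+/+ HE1 and 12.26 and 13.09 in Sp1-/- HE1, higher by 1.02 ± 0.25 (limma adjusted p = 0.0279), and the call was lost without Sp1+/+ replicate 2 (0.78) and without Sp1-/- replicate 2 (0.61). Ddc read 11.10 and 11 in Sp1+/+ progenitors and 9.86 and 9.95 in Sp1-/- progenitors, lower by -1.14 ± 0.26 (limma adjusted p = 0.0127). A second, dimmer probe of Ddc gave -0.43 there, under 2-fold. Igf2r, the receptor that clears IGF2 and is made from the maternal copy, and Airn, the paternal RNA that silences it, were called in none of the 4 populations. For Igf2r the difference moved from 0.57 in Flk1+ cells to -0.75 in progenitors, and that change of -1.32 ± 0.26 was called (limma adjusted p = 0.0141).

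Among the single genes, Nnat, a small membrane protein of the paternal copy, read 9.75 and 9.61 in Sp1+/+ progenitors and 6.53 and 6.65 in Sp1-/- progenitors. Nnat was 8.51-fold lower there, -3.09 ± 0.61 (limma adjusted p = 0.00661). In HE2 it read 9.66 and 7.63 in Sp1+/+ cells, a gap wider than its distance of -1.13 ± 0.61 from the mutant, which was not called. Slc38a4, a paternally expressed amino acid transporter, read 12.20 and 12.05 against 10.95 and 11.03 in progenitors, lower by -1.13 ± 0.18 (limma adjusted p = 0.00179). Dcn, the proteoglycan decorin of connective tissue, read 7.10 and 6.51 in Sp1+/+ HE1 against 8.74 and 8.06, higher by 1.60 ± 0.32 (limma adjusted p = 0.0112), from a level near background in the wild type. The window of Nnat, on the plus strand at chr2:157559828-157560127 (GRCm38.p6, RefSeq), is shown as that of a strongly lower gene with no GC box, and its 1 copy of TGCCGC, in capitals, is on the opposite strand and so reads GCGGCA.
Nnat: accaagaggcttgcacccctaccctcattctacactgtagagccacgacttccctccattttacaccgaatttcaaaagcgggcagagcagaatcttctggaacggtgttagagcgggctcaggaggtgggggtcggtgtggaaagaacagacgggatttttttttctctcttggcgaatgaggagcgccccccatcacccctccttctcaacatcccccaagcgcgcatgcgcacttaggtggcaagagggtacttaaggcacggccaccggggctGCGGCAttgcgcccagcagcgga

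With the main settings, the remaining members stayed within 2-fold of the wild type or missed the threshold in all 4 populations. Zim1 was called lower in progenitors with the background offset of 16 (-1.55), no background correction (-1.30) and the processed signal (-3.91). With the processed signal, Magel2 was called lower in progenitors (-1.06) and Nap1l5 higher in HE2 (2.45). In the Snrpn-Ndn cluster on chromosome 7, all 5 paternally expressed genes, the splicing factor gene Snrpn, Ndn, Magel2, Mkrn3 and Peg12, were uncalled, with log2 differences from -0.79 to 0.62. In the Peg3 cluster, the zinc finger gene Peg3 had differences of -0.24, -0.67, -0.62 and -0.87, and those of the deubiquitinase gene Usp29 were smaller. Zim1 was not well above background on either Sp1-/- progenitor array, and its Sp1+/+ level of 7.27 and 6.81 was at least 1.93-fold higher. Its effect changed by -1.39 ± 0.34 between Flk1+ cells and progenitors (limma adjusted p = 0.0413). Impact, a regulator of translation, came to -0.93 in progenitors. Gnas, the signal peptide peptidase gene H13, Rasgrf1, Nap1l5 and Zdbf2 had differences between -0.47 and 0.52.

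By allele, 7 of 21 paternally expressed genes and 2 of 16 maternally expressed genes (H19 and Meg3) were called lower in Sp1-/- progenitors. Ddc was the 1 called lower of the 3 with tissue-dependent alleles. Of all genes tested, 2.59% were called lower in that comparison. The median difference there was -0.79 for the paternal and -0.53 for the maternal genes. In HE1, 5 of 16 maternal genes were called higher (Meg3, Mirg, Asb4, Cdkn1c and Dcn) and 1 lower (H19), against 1 of 21 paternal genes higher (Plagl1) and 1 lower (Peg10), beside 0.972% of all genes higher and 1.14% lower. The alleles named are those usually active. Which copy these cells used, and whether each gene was imprinted in them, was not measured. The difference between the alleles was not tested. Of the 8 genes whose effect shifted between Flk1+ cells and progenitors, 6 were maternal, and all 8 moved downward, beside 3.81% of all genes called in that comparison and 2.36% called downward. Beside the 0 called upward in limma, 3 had an unadjusted p of 0.05 or less in that direction. The methods' t-test called 0 upward and 7 downward. Between HE1 and progenitors 10 genes shifted, again all downward (3.06% of all genes called, 1.89% downward), with 1 upward at a p of at most 0.05 before adjustment and 0 by the methods' t-test, and without Sp1+/+ progenitor replicate 1 or without Sp1-/- progenitor replicate 1 there were 6.

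Along the wild-type course, the step from Flk1+ cells to HE1 moved the most members. It called 17 of the 40, 11 higher and 6 lower in HE1, beside 8.55% of all genes. In Sp1-/- cells 15 were called, 11 higher and 4 lower (9.5% of all genes), and 13 genes were called the same way in both genotypes. The rises were led in Sp1+/+ cells by H19 (3.41 ± 0.38), Mest (3.21 ± 0.46), Plagl1 (3.18 ± 0.43), Igf2 (2.75 ± 0.38), Ddc (2.44 ± 0.26) and Igf2r (2.16 ± 0.18). The rise of Plagl1 was 5.09 ± 0.43 in Sp1-/- cells, and those of H19 and Igf2 were 3.25 and 3.45 there. The deepest drop in both genotypes was that of Phlda2, a maternally expressed gene that limits placental growth. It read 13.84 and 13.08 in Sp1+/+ Flk1+ cells and 7.04 and 6.74 in HE1, and in Sp1-/- cells 13.46 and 13.35 and then 7.20 and 6.30. The Phlda2 change was -6.57 ± 0.31 in Sp1+/+ and -6.65 ± 0.31 in Sp1-/- cells (limma adjusted p = 1.44e-07 and 1.4e-07). Phlda2 was not well above background on the Sp1-/- progenitor arrays, and it was at least 153-fold higher in Sp1-/- Flk1+ cells. Asb4, Slc38a4 and Zdbf2 also fell at the first step in both genotypes.

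From HE1 to HE2 every member called was lower in HE2. In Sp1+/+ cells 11 were called (3.31% of all genes, 2.23% lower) and in Sp1-/- cells 15 (5.6% of all genes, 3.52% lower), and all 11 of the wild type were among the 15. The methods' t-test called 0 higher in either genotype, but it called only 1 and 3 members in all (0.466% and 2.13% of all genes). With so few calls its 0 adds little to the 0 called higher in limma. Igf2r led in Sp1+/+ cells with Peg3: Igf2r went from 14.08 and 13.86 to 11.67 and 12.11, -2.08 ± 0.18, and Peg3 from 13.21 and 13.51 to 10.63 and 11.61, -2.24 ± 0.40. In Sp1-/- cells Cdkn1c fell by 3.04 and Meg3 by 2.58 at this step. H19, Igf2, Plagl1, Igf2r and Airn were called higher in HE1 and then lower in HE2 in both genotypes, and in Sp1-/- cells Grb10, Ddc and Dcn did so too.

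From HE2 to progenitors the genotypes gave different counts. In Sp1+/+ cells 3 members were called, all lower (1.74% of all genes, 0.729% lower): H19 (-1.89), Igf2 (-1.40) and Asb4 (-1.30). The count was 7 without Sp1+/+ HE2 replicate 1, of which Nnat was higher in progenitors (2.05) and 6 were lower, and it was 1 without Sp1+/+ HE2 replicate 2 or without Sp1+/+ progenitor replicate 2. In Sp1-/- cells 12 were called, all lower (4.99% of all genes, 2.66% lower), among them Plagl1 (-3.88), Mest (-3.77), Igf2 (-3.32), Meg3 (-3.20) and H19 (-3.01), and the 3 of the wild type were among them. The methods' t-test called 0 higher in either genotype and 0 in all in Sp1+/+ cells, and with 2-fold and no p Nnat was higher in Sp1+/+ progenitors (1.03). Over the whole course from Flk1+ cells to progenitors, 12 members were called in Sp1+/+ cells (8.58% of all genes), of which Ddc alone was higher, and 19 in Sp1-/- cells (12.3% of all genes, 6.59% lower), all lower. Meg3 fell by 2.57 in Sp1+/+ and by 6.47 in Sp1-/- cells, Asb4 fell by 5.20 and 6.38, and Cdkn1c fell by 2.56 and 4.04. The 2 courses end in the same progenitor arrays as the comparisons of the genotypes above, so these values and those share samples.

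**Figure D4:**
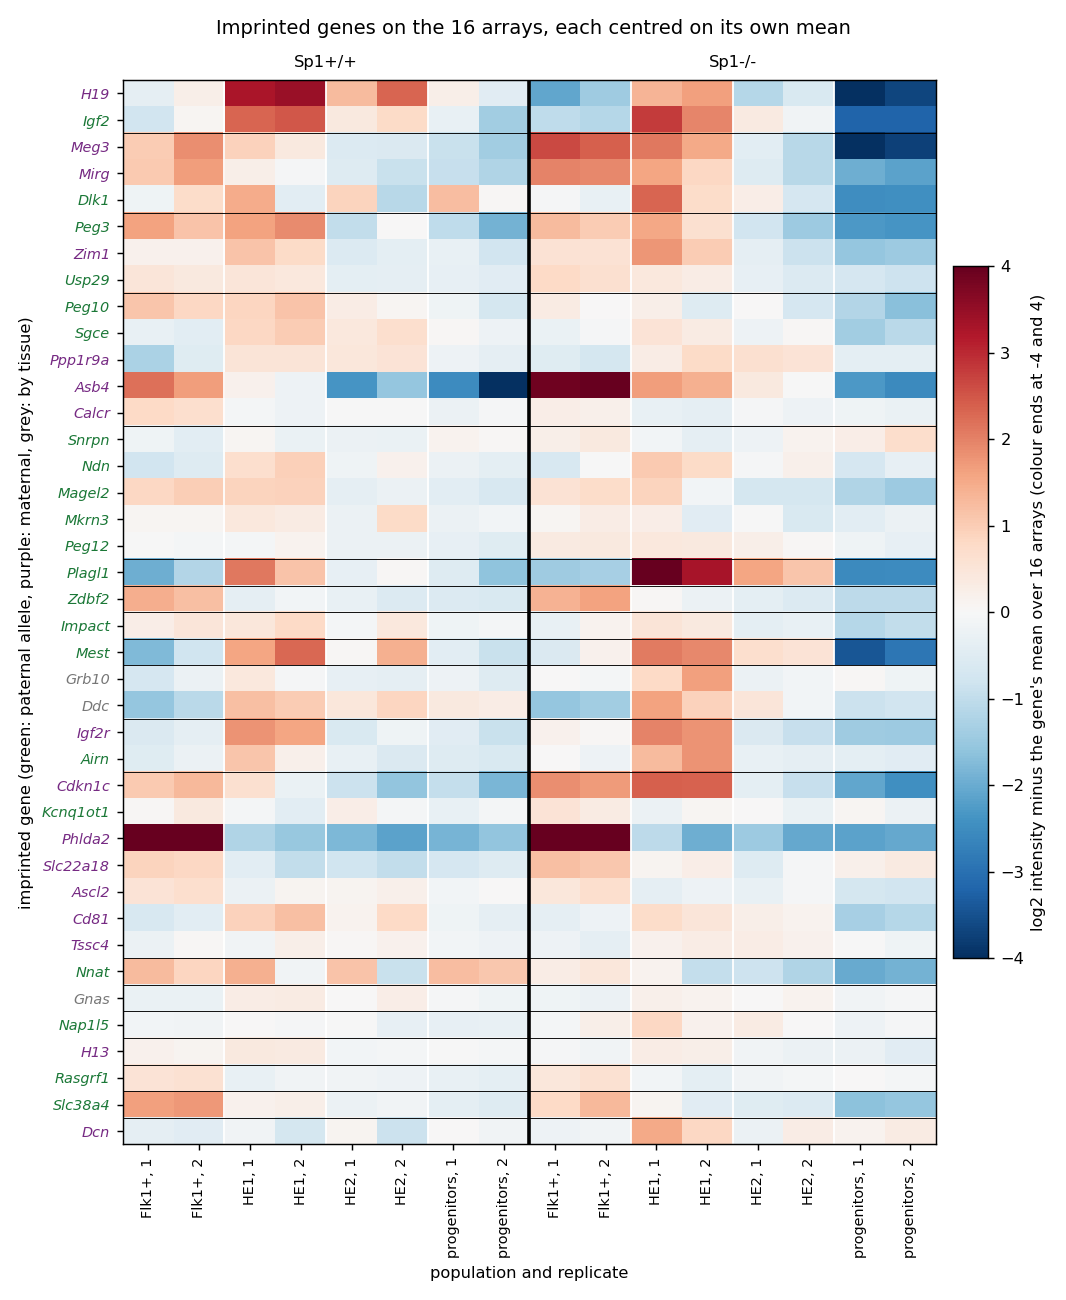
Log2 intensity of 40 imprinted genes (rows, by cluster, names coloured by allele) on the 16 arrays (columns, by genotype, population and replicate), each gene centred on its mean over all arrays. Red is above and blue below that mean. The HE1 columns are red for H19, Igf2, Plagl1, Mest and Igf2r in both genotypes, and the last 2 columns, the Sp1-/- progenitors, hold the darkest blue of H19 and Meg3.

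Among 32 further imprinted genes measured, outside the 41, 1 was called higher and 5 lower in progenitors (4.11% of all genes called, 2.59% lower), and 0 higher and 4 lower in HE1 (2.11% of all genes called, 1.14% lower), where 6 had an unadjusted p of 0.05 or less upward. Their median difference in progenitors was -0.08. Peg13 was called lower in HE1, HE2 and progenitors (-1.21, -1.65 and -1.46), and Copg2 higher in Flk1+ cells, HE2 and progenitors (1.57, 1.12 and 1.11). Osbpl5 (-1.99) and Klf14 (-1.84) were among those called lower in progenitors. Klf14 was not well above background on the Sp1-/- progenitor arrays, and its Sp1+/+ level was at least 3.56-fold higher.

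Of 21 measured factors that place or guard imprints, limma called 0 in Flk1+ cells, HE1 and HE2, beside 1.65%, 2.11% and 1.94% of all genes. For a list of this length a count of 0 is near those shares. The p before adjustment was at most 0.05 there for 8, 1 and 4 upward and for 1, 5 and 2 downward. In progenitors the methyltransferase genes Dnmt3a (-1.06) and Dnmt3b (-1.15) were called lower and the demethylation enzyme gene Tet3 (1.00) higher, 3 of the 21 beside 4.11% of all genes. Of 18 genes of the IGF axis, 0 were called in Flk1+ cells, HE1 and HE2, again near the shares of all genes. At a p of at most 0.05 before adjustment 1, 3 and 3 were upward and 2, 1 and 3 downward. In progenitors 4 genes of the axis outside the imprinted list were called lower, beside 2.59% of all genes. They were the binding protein genes Igfbp2 (-4.13) and Igfbp5 (-2.17), Irs1 (-2.04), which relays the receptor's signal, and Igf2bp2 (-1.34), which binds the Igf2 transcript. Igf2 and Igf2r belong to the axis too, and Igf2 was also called lower in progenitors (-2.37), as given above.

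The RefSeq table held 55 promoter windows for 35 of the 41 genes, and none for H19, Peg10, Sgce, Impact, Cdkn1c and Dcn. A GC box stood in 47.3% of these windows and in 35.7% of all 32851 windows of the table. Among the windows of the genes called lower in Sp1-/- progenitors the share was 47.1% (8 of 17), and among those of the genes not called there it was 48.6% (18 of 37). TGCCGC stood in 21.8% of the members' windows and in 11.6% of all windows. These are matches of letters in short windows and were not measured as binding.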

How the data were processed

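RNA of 4 sorted populations of 2 genotypes was hybridised to 16 one-colour Agilent arrays. The authors extracted spot intensities with Agilent Feature Extraction (10.7.1.1 per the labels, 10.7.3.1 per the file headers), and the deposited files hold median spot and local background intensities. The log2 values were background-corrected and quantile-normalised by the authors before they were deposited. They differed by at most 0.0258 from normexp with an offset of 50 followed by quantile normalisation, and by up to 1.63 from the offset of 16 given in the supplementary methods. Spots of a probe were averaged, probes under a log2 intensity of 6 on all arrays were left out, and the brightest probe stood for a gene. Target accessions were matched to RefSeq gene names (GRCm38.p6), with 20869 of 37932 matched by accession, 12 by symbol or synonym and the others kept under the array's own name. An 8-group model was fitted to 37149 genes in limma 3.58.1 (R 4.3.3), with Benjamini-Hochberg adjustment over all of them. The script was tested on simulated data. The number of arrays limits the precision. Fold bounds against a group not well above background used the lowest signal of probes well above background on each array (5.85 to 6.25). All 40 measured genes were described, and those called between genotypes were named with values of single arrays. Of the further listed genes called, not all were named, and those named were given with the log2 difference alone. The genes, lists and the allele usually active were chosen with earlier results of these data known, the alleles from general knowledge. The change of effect from HE1 to progenitors was added after the values were seen. Alternatives were the background offset, no correction, the processed signal, the intensity filters, the mean over probes, the replicate number as a block, an intensity trend, other thresholds, only the arrays compared, the methods' t-test, and leaving out each array. The authors' own lists of changed genes were not used.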

Additional observations from a re-analysis of the deposited data

Results flagged for a closer look

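The effect of the Sp1-/- genotype differed between Flk1+ cells and progenitors in 8 imprinted genes, by a limma test of the difference between the 2 effects. The log2 changes of effect were -2.08 for H19, -3.89 for Meg3, -1.57 for Mirg, -1.39 for Zim1, -1.36 for Sgce, -3.57 for Mest, -1.32 for Igf2r and -1.21 for Cd81. H19 was no longer called without Sp1+/+ progenitor replicate 1 (-1.73), Sp1+/+ Flk1+ replicate 1 (-1.78), Sp1-/- progenitor replicate 1 (-1.88) or Sp1-/- Flk1+ replicate 2 (-1.75). Mirg was no longer called without Sp1+/+ progenitor replicate 1 (-1.43) or Sp1+/+ Flk1+ replicate 1 (-1.26), and Zim1 without Sp1+/+ progenitor replicate 1 (-1.16).

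Between HE1 and progenitors, in the comparison added after the values were seen, the effect differed in 10 genes. The changes were -1.92 for H19, -2.33 for Igf2, -3.99 for Meg3, -2.09 for Mirg, -4.12 for Dlk1, -1.42 for Zim1, -3.56 for Plagl1, -2.58 for Mest, -1.30 for Ddc and -3.06 for Cdkn1c. Of these, 5 also passed a limma adjusted p of 0.05. H19 lost its call without Sp1+/+ HE1 replicate 1 (-1.83), Sp1+/+ progenitor replicate 1 (-1.57), Sp1-/- progenitor replicate 1 (-1.73) or Sp1-/- HE1 replicate 2 (-1.77). Dlk1 lost it without Sp1+/+ progenitor replicate 1 (-3.53), Sp1+/+ HE1 replicate 2 (-3.16), Sp1-/- HE1 replicate 1 (-3.32) or either Sp1-/- progenitor array (-4.10 and -4.14). Mest lost it without Sp1+/+ HE1 replicate 1 (-2.21), Sp1+/+ progenitor replicate 1 (-2.35) or Sp1-/- progenitor replicate 1 (-2.31). Ddc lost it without Sp1+/+ progenitor replicate 1 (-1.25), Sp1+/+ HE1 replicate 2 (-1.21), Sp1-/- HE1 replicate 1 (-0.95) or either Sp1-/- progenitor array (-1.26 and -1.35). Both comparisons use the same progenitor arrays, and with 2 arrays a group no single array could be tested as standing apart.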

How the results depend on the processing

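No called difference of an imprinted gene reversed under any alternative run, and the counts moved as follows. With an adjusted p of 0.01 the counts called were 0 in Flk1+ cells, 1 in HE1 and 1 in HE2, 2 for the change of effect from Flk1+ cells to progenitors and 2 from HE1, and in Sp1+/+ cells 5 for the step to HE2 and 0 for the step to progenitors. With an adjusted p of 0.05 they were 1 from HE2 to progenitors in Sp1+/+ cells and 5 for the change of effect from HE1. With 2-fold and no p they were 14 for the change of effect from Flk1+ cells and 5 from HE2 to progenitors in Sp1+/+ cells. HE1 had 5 with only the arrays compared and 5 with the processed signal, and the Sp1+/+ step from HE2 to progenitors had 1 with only the arrays compared. The methods' t-test called 0, 1, 0 and 3 in the 4 populations, 4 for the change of effect from HE1, 5, 1, 0 and 5 for the 3 steps and the whole course in Sp1+/+ cells, and 4, 3 and 6 for the steps in Sp1-/- cells.

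Leaving out 1 array at a time gave counts of 1 to 2 for Flk1+ cells, 4 to 11 for HE1, 2 to 3 for HE2 and 8 to 15 for progenitors. It gave 5 to 12 for the change of effect from Flk1+ cells (5 without Sp1+/+ progenitor replicate 1) and 6 to 12 from HE1. For the steps in Sp1+/+ cells it gave 16 to 17, 7 to 10 (7 without Sp1+/+ HE1 replicate 1) and 1 to 7, and for those in Sp1-/- cells 14 to 15, 11 to 13 and 9 to 16. A group left with 1 array was assumed to vary like the others. With the mean over probes, Plagl1 fell under 2-fold in HE2 (0.81) and progenitors (-0.68), and Meg3 in Flk1+ cells (0.79) and HE1 (0.85). Peg10 in HE1 (-0.96) and Ddc in progenitors (-0.79) fell under it too.

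With the replicate number as a block (replicate block) the counts were 3, 9, 3 and 10 in the 4 populations. The labels do not say that the numbers mark shared cultures. The replicate differences of the genotypes correlated at 0.21, 0.29, -0.18 and -0.12 in the 4 populations. Within a genotype they correlated at -0.15 to 0.51 between populations, highest for Sp1+/+ HE1 with Sp1+/+ HE2. The supplementary methods describe HE1, HE2 and progenitors as separated from combined cells of a blast culture. The block gave both genotypes the same term, so a culture shared within a genotype was not modelled. The comparisons of populations were unpaired. Genotype, cell line and slide cannot be told apart, and 2 arrays a group limit what could be called.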
